A study of Mus musculus with 4 samples.

Results

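The lysosome enzyme and membrane genes described here are 33 named members: cathepsins and other proteases, glycosidases, lipid hydrolases and their helper proteins, membrane proteins, parts of the vacuolar proton pump (V-ATPase) and the transcription factor gene Tfeb. They were chosen by symbol from a list of lysosomal genes with the condition of a mean of at least 1 FPKM, and all 33 of 33 met it, out of 24537 genes in the deposited table, of which 9810 met the same condition. FPKM is a level per length of exon, scaled to the tags of the library. The members nearest to that limit were Npc1, with a mean of 2.57 FPKM over the 4 libraries, and Gla, with 3.21 FPKM, and no member lay under it. RNA was measured in tumour-infiltrating CD8+ cells of mice carrying the B16-GP33 tumour at day 21, in 2 libraries with the genotype ACSS2NLS and 2 with the genotype EV. B16 cells come from a mouse melanoma, and GP33 names a viral peptide that T cells can recognise. The enzyme ACSS2 turns acetate into acetyl-CoA, NLS commonly stands for nuclear localisation signal, and ACSS2NLS is set against EV, whose columns are named Acss2WT. Tumour, cell type and day were the same in both groups. The sources used here do not give the strain, age or sex of the mice, how ACSS2 was introduced, or whether a library came from 1 mouse or a pool. In the values, the Y-linked genes Eif2s3y, Kdm5d, Ddx3y and Uty were at 0 in replicate 2 of both groups and above 0 in replicate 1 of both. Replicate number and the presence of Y-linked transcripts therefore cannot be told apart. These libraries include none with ACSS2 raised but lacking the signal, so amount and location of the enzyme cannot be told apart.

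Lysosomes are acidic organelles in which proteases, glycosidases and lipid hydrolases break down material delivered by endocytosis, phagocytosis and autophagy. The V-ATPase pumps protons into them, heavily glycosylated membrane proteins such as LAMP1 line them, and TFEB with its relatives activates many of their genes through a short promoter element that contains CACGTG. In cytotoxic T cells the lytic granules are secretory lysosomes that hold granzymes and perforin, while macrophages carry an especially large lysosomal system, and CD68 and cathepsin S are commonly used to recognise them.

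The level of Acss2 was 80.7 and 86.3 FPKM in the ACSS2NLS libraries, against 3.66 and 3.92 FPKM in the EV libraries (log2 change 4.14 ± 0.11, SE, n = 2 per group; limma-trend, adjusted p = 0.000931), which fits the labels. The libraries held about 46000000 to 49300000 tags, and 39.6% to 41.9% of them were counted on exons. Behind each member's value in each library stood 59 to 33716 tags. Cd8a was at 161 and 145 FPKM in ACSS2NLS and at 186 and 161 FPKM in EV, and 12 of 12 CD8 T cell markers had a mean of at least 1 FPKM. Transcripts of other cells were also present. The summed level of 24 macrophage markers, none of them a member, was 224 and 986 FPKM in ACSS2NLS replicates 1 and 2, against 82.0 and 577 FPKM in EV replicates 1 and 2, with no marker at 0 in any library. The summed level of 10 melanoma markers was 12.3 and 141 FPKM in ACSS2NLS, against 6.44 and 40.1 FPKM in EV, also with no marker at 0. In both groups replicate 2 thus stood far above replicate 1 in macrophage and melanoma transcripts. In bulk RNA, more cells of a type and more RNA per cell cannot be told apart.

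No lysosomal gene passed the test between ACSS2NLS and EV made without a term for the replicate number, and in most of them the libraries of the groups overlapped. Of the 33 members, 0 passed the threshold upward and 0 downward (limma-trend, adjusted p from 0.81 to 0.999), where 0.0204% of all genes tested passed upward and 0.0% downward. At an unadjusted p under 0.05 the members still gave 0 in either direction, against 3.1% of all genes upward and 2.87% downward. With the replicate number as a term, which leaves 1 residual degree of freedom, 6 members passed the threshold upward, 18.2%, against 2.33% of all genes. They are named with the alternatives below. The mean was higher in ACSS2NLS for 20 members and lower for 13, where 53.2% of all genes were higher and 46.8% lower. Without ACSS2NLS replicate 2 it was higher for 3 and lower for 30 (46.7% and 53.3% of all genes), without ACSS2NLS replicate 1 for 25 and 8 (56.1% and 43.9%), and without EV replicate 1 for 12 and 21 (50.9% and 49.1%). Their median log2 change was 0.064, beside 0.015 over all genes. That median was -0.23 without ACSS2NLS replicate 2 and 0.36 without ACSS2NLS replicate 1, and -0.036 and 0.21 without EV replicates 1 and 2. In 0 members did both ACSS2NLS libraries exceed both EV libraries, beside 19.3% of all genes, and in 4 members, Man2b1, Ppt1, Scarb2 and Mcoln1, both ACSS2NLS libraries were the lower, beside 18.1% of all genes. With a library left out fewer genes of any kind overlap. Without ACSS2NLS replicate 1, 23 members were higher (69.7%, against 43.4% of all genes) and 4 lower (12.1%, against 31.6%). Without ACSS2NLS replicate 2, 0 were higher (against 33.9% of all genes) and 23 lower (69.7%, against 39.4%). Without EV replicate 1, 1 was higher and 7 lower (3.03% and 21.2%, against 30.9% and 28.6% of all genes), and without EV replicate 2, 9 were higher and 7 lower (27.3% and 21.2%, against 35.4% and 31.4%).

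The members fell into a part that varied widely between the libraries and a part that varied less. In 8 of 33 members, 24.2%, the highest library was at least 4-fold above the lowest, against 3.36% of all genes tested: Lgmn, Ctsl, Cd63, Cd68, Ctss, Psap, Grn and Ctsz, with 19.5-fold for Lgmn down to 4.12-fold for Ctsz. The other 25 members differed by 1.07-fold for Atp6v0d1 up to 2.43-fold for Hexa, so no member lay between 2.43-fold and 4.12-fold. Their median fold was 1.49, above the 1.34 of all genes tested. In ACSS2NLS, replicate 2 was above replicate 1 for 24 of these 25, against 57.5% of all genes. The median difference was 0.34 on the log2 scale, against 0.054 over all genes. In EV it was 0.0064, against 0.0046 over all genes. The fold of 4 was set after the values were seen. In these 8 genes replicate 2 was at least 2-fold above replicate 1 in ACSS2NLS and in EV alike, as in 20 of the 22 macrophage markers with a mean of at least 1 FPKM. The same held for 2.58% of all genes and for 220 of the 330 genes, 66.7%, that had at least 4-fold between libraries. For 7 of the 8, all except Grn, the libraries ran ACSS2NLS replicate 2, EV replicate 2, ACSS2NLS replicate 1 and EV replicate 1 from high to low. Over all 33 members this order was found in 9, against 8.81% of all genes, and in 21 of the 22 macrophage markers. Its share among the 330 genes with at least 4-fold between libraries was not counted. Without ACSS2NLS replicate 2 only Ctsl and Lgmn reached 4-fold, beside 2.28% of all genes; without EV replicate 1 there were 5, Ctsl, Lgmn, Psap, Grn and Cd63, beside 2% of all genes. The part of macrophage or melanoma RNA in these values was not tested, nor was that of the difference in Y-linked transcripts between the replicates.

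**Figure D1:**
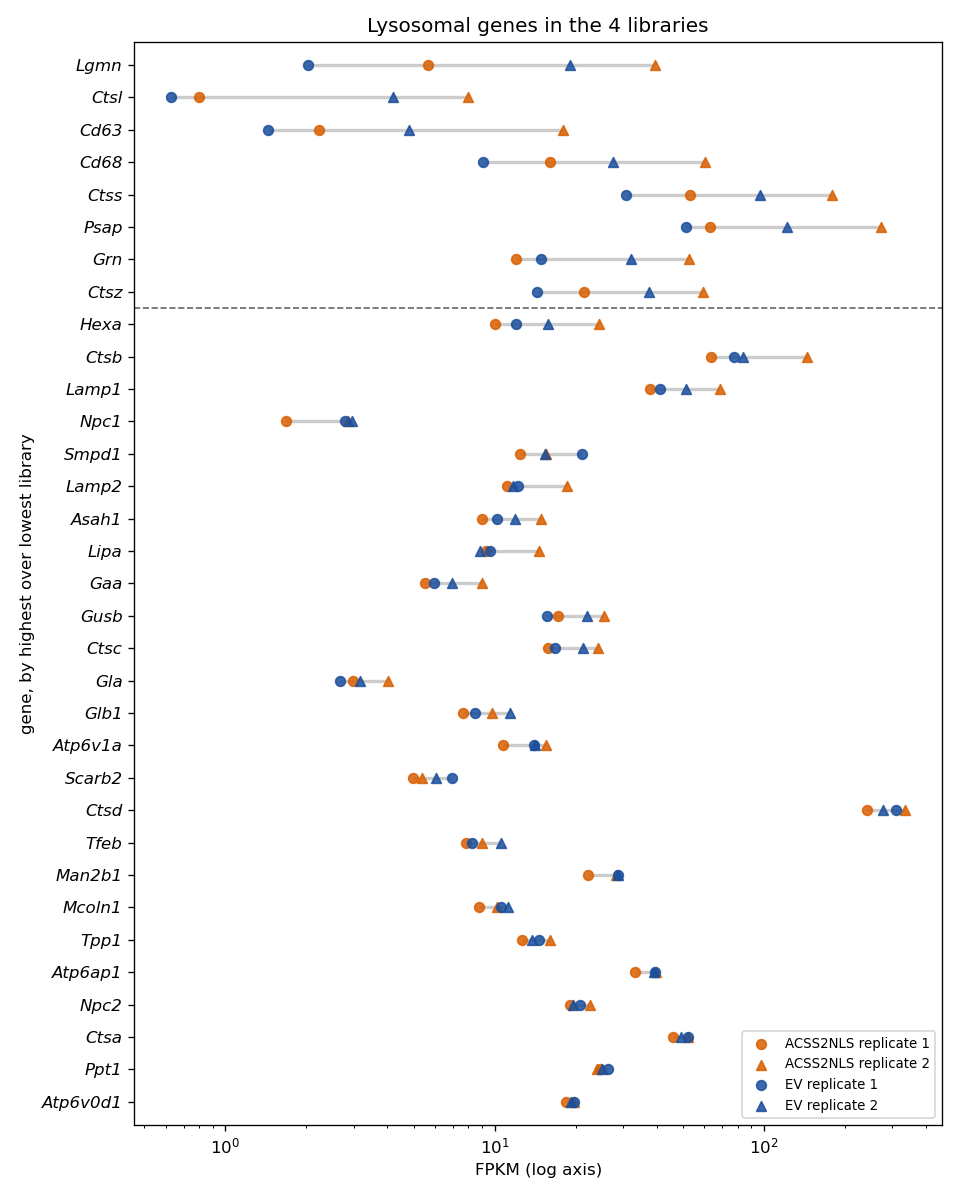
FPKM (log axis) of the 33 lysosomal genes in each library, with the gene of the largest fold between its highest and lowest library at the top; circles are replicate 1 and triangles replicate 2, and the grey bar joins the lowest and the highest library. Above the dashed line stand the 8 genes with at least 4-fold, in each of which both replicates 2 exceed both replicates 1.

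Summed over the 33 members, the level was 831 and 1647 FPKM in ACSS2NLS replicates 1 and 2, against 913 and 1124 FPKM in EV replicates 1 and 2. The 8 wide genes made up 21.0% and 42.0% of that sum in ACSS2NLS and 13.7% and 30.6% in EV. The 25 others summed to 656 and 955 FPKM in ACSS2NLS and to 788 and 780 FPKM in EV, so the EV libraries were nearly level in them and the ACSS2NLS libraries lay on either side. Within ACSS2NLS, replicate 2 was above replicate 1 for 32 of 33 members, Ppt1 being the exception, against 57.5% of all genes; within EV it was for 21 of 33, against 50.8% of all genes. In both groups at once it was for 21 of 33, against 34.9% of all genes.

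The promoters of the members are shown where they carry the core of the element that TFEB binds, to set the wide members beside the others. RefSeq promoter windows (GRCm38.p6, from 250 bases before to 50 after an annotated start) were found for 30 of the 33 members, not for Asah1, Ctsb and Npc1. The letters TCACGTG, searched on both strands, so that CACGTGA counts too, stood in at least 1 window of 10 members, 33.3%. They stood in 7.48% of the genes tested that had a window, in 4.29% of all genes with a window and in 3.77% of all windows. A match always holds the shorter CACGTG, and the palindrome TCACGTGA is matched on both strands at once. The 10 were Ctsa, Ctsd, Mcoln1, Lamp1, Atp6v0d1, Glb1, Gaa, Atp6v1a, Gla and Lgmn. Of these, 9 were among the 22 members under 4-fold with a window and 1, Lgmn, among the 8 wide ones. Of the 14 macrophage markers with a window, 0 held TCACGTG. A match is a description of these letters and not of binding, which was not measured. The stretches below, each written 5′ to 3′ on the strand of its gene with the matched letters in capitals, are those of Ctsd, the most abundant member, of Lamp1, Mcoln1, Ctsa and Gla, with several matches each, and of the widely varying Lgmn, whose match lies in the first intron of the transcript counted, before another annotated start.
Ctsd (chr7:142387894-142388077, minus strand): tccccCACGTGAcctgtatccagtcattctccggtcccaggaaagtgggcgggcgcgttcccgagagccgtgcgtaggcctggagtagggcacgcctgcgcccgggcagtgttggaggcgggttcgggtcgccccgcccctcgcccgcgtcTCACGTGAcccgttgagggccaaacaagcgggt
Lamp1 (chr8:13159074-13159176, plus strand): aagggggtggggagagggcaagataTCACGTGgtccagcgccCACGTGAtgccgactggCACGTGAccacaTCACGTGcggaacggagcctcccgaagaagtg
Mcoln1 (chr8:3500422-3500505, plus strand): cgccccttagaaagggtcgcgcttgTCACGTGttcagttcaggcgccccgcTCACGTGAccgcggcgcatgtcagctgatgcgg
Ctsa (chr2:164833735-164833802, plus strand): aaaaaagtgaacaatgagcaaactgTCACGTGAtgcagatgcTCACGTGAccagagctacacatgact
Gla (chrX:134601168-134601255, minus strand): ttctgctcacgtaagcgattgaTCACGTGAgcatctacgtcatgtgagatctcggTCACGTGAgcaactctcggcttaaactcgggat
Lgmn (chr12:102439111-102439167, minus strand): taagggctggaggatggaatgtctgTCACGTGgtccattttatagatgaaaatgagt

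In Lamp1 the 4 matches began 62, 45, 28 and 16 bases before the start, and in Ctsa they lay on either side of the start. Ctsd, with 3 matches, had the highest level of the members in every library, while Gla, with 4, was among the 3 lowest by its mean over the libraries. The matches began at -245, -99 and -98 from the start in Ctsd and at -228, -227, -195 and -194 in Gla. Adjacent positions are a palindrome counted on both strands, so Gla held no more separate places than Ctsd. The share of windows with the letters was 14.8% among further lysosomal and V-ATPase genes, 8 of 54.

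Cathepsins and other soluble proteases had the highest summed level of the roles, at 462 and 860 FPKM in ACSS2NLS, against 519 and 602 FPKM in EV. Ctsd, the aspartic protease cathepsin D and the most abundant of all members, was at 243 and 336 FPKM in ACSS2NLS, against 310 and 276 FPKM in EV. Its EV libraries lay between its ACSS2NLS libraries (log2 change -0.035 ± 0.21, SE, n = 2 per group), and the sign turned to 0.064 under quantile normalization. Ctss, the cathepsin that trims the invariant chain of MHC class II in antigen-presenting cells, was at 53.4 and 179.8 FPKM in ACSS2NLS and at 30.8 and 96.6 FPKM in EV. Lgmn, which encodes legumain, a cysteine protease that cuts after asparagine and processes cathepsins, was at 5.67 and 39.4 FPKM in ACSS2NLS and at 2.02 and 19.1 FPKM in EV. In both genes the replicates of a group differed by more than the groups did: Lgmn was 6.95-fold higher in replicate 2 than in replicate 1 of ACSS2NLS and 9.46-fold in EV, beside a 2.13-fold difference between the group means. Without a term for the replicate number, the log2 changes of 0.83 ± 0.73 for Ctss and 1.07 ± 1.15 for Lgmn did not pass (limma-trend, adjusted p = 0.853 and 0.878). With that term, which leaves 1 residual degree of freedom, both passed upward. At the same replicate number both genes were higher in ACSS2NLS than in EV.

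Ctsl, the cysteine protease cathepsin L, was the protease with the lowest level, at 0.796 and 8.0 FPKM in ACSS2NLS and at 0.628 and 4.21 FPKM in EV. Ctsz, a cathepsin that acts as a carboxypeptidase, was at 21.5 and 59.5 FPKM in ACSS2NLS and at 14.4 and 37.4 FPKM in EV. Both were low in replicate 1 and high in replicate 2 of either group, and the groups overlapped. Ctsb, cathepsin B, differed from them in EV, where its libraries were close to each other: it was at 63.6 and 144.7 FPKM in ACSS2NLS and at 77.6 and 83.8 FPKM in EV. The remaining proteases kept within 1.53-fold over the libraries. Ctsc, which encodes the dipeptidyl peptidase that activates granzymes in cytotoxic cells, was at 15.8 and 24.2 FPKM in ACSS2NLS and at 16.8 and 21.3 FPKM in EV (log2 change 0.05 ± 0.23). Ctsa, the carboxypeptidase that protects beta-galactosidase and neuraminidase, was at 46.0 and 52.3 FPKM in ACSS2NLS and at 52.5 and 49.1 FPKM in EV. Tpp1, a tripeptidyl peptidase, had a log2 change of 0.00 ± 0.15, and its levels overlapped between the groups as those of Ctsc and Ctsa did.

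Glycosidases, which take sugars off glycoproteins, glycolipids and glycogen, included no gene of the wide part. Man2b1, the alpha-mannosidase and the most abundant of the 6, was at 22.2 and 28.3 FPKM in ACSS2NLS, against 28.8 and 28.7 FPKM in EV. It was lower in both ACSS2NLS libraries, by little in replicate 2, and did not pass (log2 change -0.19 ± 0.15; limma-trend, adjusted p = 0.837). Hexa, the alpha subunit of beta-hexosaminidase, which degrades GM2 ganglioside, was at 10.05 and 24.4 FPKM in ACSS2NLS and at 12.0 and 15.9 FPKM in EV, with both EV libraries between the ACSS2NLS libraries. Gusb, the beta-glucuronidase, was at 17.2 and 25.4 FPKM in ACSS2NLS and at 15.7 and 22.1 FPKM in EV. Gla, the alpha-galactosidase, was at 2.99 and 4.003 FPKM in ACSS2NLS and at 2.66 and 3.17 FPKM in EV. Gusb and Gla were the only members outside the wide part with the library order of the macrophage markers, at 1.62-fold and 1.503-fold between the highest and the lowest library. Gaa, which degrades glycogen, had a log2 change of 0.12 ± 0.23, and Glb1, the beta-galactosidase, had -0.16 ± 0.19; the levels of both overlapped between the groups.

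Among the genes of lipid breakdown, the helper protein genes Psap and Grn were in the wide part and the other 6 were not. Psap, whose product prosaposin is cut into the saposins that present sphingolipids to their hydrolases, was at 63.1 and 273 FPKM in ACSS2NLS, against 51.5 and 122 FPKM in EV. Grn, which encodes progranulin, was at 12.0 and 52.7 FPKM in ACSS2NLS and at 14.9 and 32.1 FPKM in EV. Both were highest in ACSS2NLS replicate 2; the lowest library was EV replicate 1 for Psap and ACSS2NLS replicate 1 for Grn. Their log2 changes were 0.72 ± 0.75 and 0.21 ± 0.70, and without a term for the replicate number neither passed (limma-trend, adjusted p = 0.875 and 0.972). With that term Psap passed upward and Grn did not.

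The sphingolipid enzyme Smpd1, acid sphingomyelinase, had the most negative log2 change of the members, -0.35 ± 0.19 (limma-trend, adjusted p = 0.813). It was at 12.5 and 15.6 FPKM in ACSS2NLS and at 21.2 and 15.4 FPKM in EV. EV replicate 1 was the highest library, while EV replicate 2 lay within the ACSS2NLS range. Asah1, acid ceramidase, was at 8.97 and 14.9 FPKM in ACSS2NLS and at 10.2 and 11.9 FPKM in EV. Lipa, the lipase that frees cholesterol and fatty acids from lipoproteins, was at 9.29 and 14.6 FPKM in ACSS2NLS and at 9.62 and 8.79 FPKM in EV, with ACSS2NLS replicate 2 above the 3 other libraries. Ppt1, which removes palmitate from proteins, was at 24.7 and 24.1 FPKM in ACSS2NLS and at 26.3 and 25.04 FPKM in EV. It was lower in both ACSS2NLS libraries, but only by 0.07 ± 0.11 on the log2 scale (limma-trend, adjusted p = 0.916). Npc1 and Npc2 pass cholesterol out of the lysosome together. Npc1, the membrane transporter, was at 1.68 and 2.87 FPKM in ACSS2NLS and at 2.79 and 2.96 FPKM in EV. Npc2, the soluble carrier, was at 19.0 and 22.7 FPKM in ACSS2NLS and at 20.7 and 19.6 FPKM in EV, and the groups overlapped for both.

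Among the membrane proteins, Cd68 and Cd63 were in the wide part and the other 4 were not. Cd68, the macrophage sialomucin, was at 16.1 and 60.7 FPKM in ACSS2NLS and at 9.05 and 27.5 FPKM in EV. Cd63, a tetraspanin of late endosomes, melanosomes and secretory granules, was at 2.24 and 18.04 FPKM in ACSS2NLS and at 1.44 and 4.79 FPKM in EV. Both were highest in ACSS2NLS replicate 2 and lowest in EV replicate 1. Without a term for the replicate number, their log2 changes of 0.94 ± 0.73 and 1.06 ± 0.87 did not pass (limma-trend, adjusted p = 0.838 and 0.849). With that term both passed upward. Lamp1, the glycoprotein that reaches the surface when lytic granules fuse, was at 37.8 and 68.5 FPKM in ACSS2NLS and at 41.2 and 51.6 FPKM in EV. Lamp2, its relative, was at 11.1 and 18.6 FPKM in ACSS2NLS and at 12.3 and 11.7 FPKM in EV, and in both Lamp genes the EV libraries lay between the ACSS2NLS libraries. Scarb2, the receptor that carries glucocerebrosidase to the lysosome, was at 4.96 and 5.37 FPKM in ACSS2NLS, against 6.92 and 6.07 FPKM in EV. It had the smallest unadjusted p of the members, 0.0975, with a log2 change of -0.28 ± 0.14 (limma-trend, adjusted p = 0.81). Mcoln1, the calcium channel of the lysosome, was at 8.73 and 10.2 FPKM in ACSS2NLS, against 10.6 and 11.2 FPKM in EV, with a log2 change of -0.19 ± 0.13 (limma-trend, adjusted p = 0.835). For Scarb2 and Mcoln1 the groups did not overlap.

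The V-ATPase members with Tfeb had the smallest median fold between libraries of the roles, 1.27, beside 2.28 for the proteases. Over all genes tested it was 1.34, so their value was near that of most genes. Atp6v0d1, a subunit of the membrane sector, was at 18.5 and 19.7 FPKM in ACSS2NLS and at 19.8 and 19.2 FPKM in EV. Atp6ap1, an accessory subunit, was at 33.3 and 39.9 FPKM in ACSS2NLS and at 39.3 and 39.2 FPKM in EV. Atp6v1a, the catalytic subunit, was at 10.8 and 15.5 FPKM in ACSS2NLS and at 14.1 and 14.1 FPKM in EV. In each of these 3 genes the EV libraries were almost equal, and both lay within the ACSS2NLS range for Atp6ap1 and Atp6v1a. Tfeb was at 7.81 and 8.96 FPKM in ACSS2NLS and at 8.21 and 10.6 FPKM in EV. Its log2 change was -0.14 ± 0.16, and those of the 3 pump genes were between -0.11 and -0.03.

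**Figure D2:**
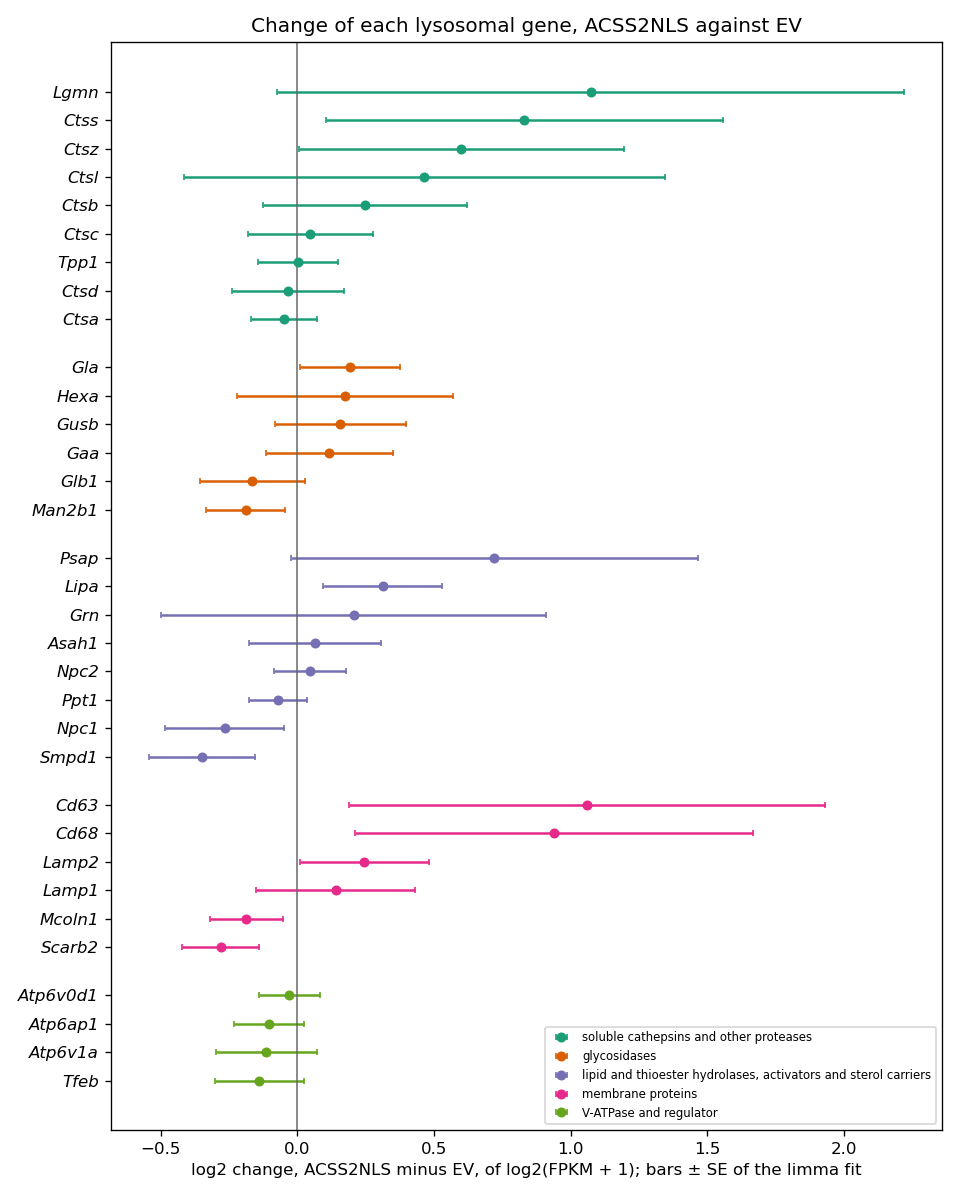
Log2 change of each lysosomal gene, ACSS2NLS minus EV, on the log2(FPKM + 1) scale, by role; bars are the SE of the limma-trend fit with 2 libraries per group. The wide bars belong to Lgmn, Ctss, Ctsz, Ctsl, Psap, Grn, Cd63 and Cd68. No gene shown passed in this fit, made without a term for the replicate number. With that term Ctsz, Ctss, Lgmn, Psap, Cd63 and Cd68 passed upward.

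The wide genes were also compared with macrophage transcripts library by library. Lyz2, the lysozyme gene of myeloid cells, was at 60.3 and 233 FPKM in ACSS2NLS, against 17.99 and 137 FPKM in EV. C1qa, a complement gene of tissue macrophages, was at 9.63 and 52.6 FPKM in ACSS2NLS, against 1.21 and 22.1 FPKM in EV. Adgre1, a surface receptor of macrophages, was at 1.69 and 8.40 FPKM in ACSS2NLS, against 0.311 and 4.89 FPKM in EV, and Csf1r, the receptor for macrophage colony-stimulating factor, was at 2.995 and 13.1 FPKM in ACSS2NLS, against 1.46 and 11.9 FPKM in EV. All 4 markers put the libraries in the order given above for the wide genes, and over the 22 measured markers the median fold between the highest and the lowest library was 12.6. The exception to the order among the 22 was Cd14, at 3.09 and 5.04 FPKM in ACSS2NLS, against 5.90 and 29.1 FPKM in EV. It was lower in both ACSS2NLS libraries. The pigment cell gene Mlana was at 1.67 and 15.4 FPKM in ACSS2NLS, against 1.15 and 2.90 FPKM in EV, in the order of the wide genes.

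The ratio of a wide gene's level to that of Lyz2 was also taken within each library. For Ctss it was 0.885 and 0.770 in ACSS2NLS replicates 1 and 2, against 1.71 and 0.704 in EV replicates 1 and 2. For Cd68 it was 0.267 and 0.260 in ACSS2NLS, against 0.503 and 0.200 in EV, and for Lgmn 0.0941 and 0.169 in ACSS2NLS, against 0.112 and 0.140 in EV. EV replicate 1, the library with the least macrophage RNA, had the highest ratio for 7 of the 8 wide genes, all except Lgmn. For Psap the ratio was 1.05 and 1.17 in ACSS2NLS, against 2.86 and 0.891 in EV. The 12 CD8 T cell markers ran the other way between the replicates: they summed to 3068 and 2440 FPKM in ACSS2NLS replicates 1 and 2, against 3975 and 3046 FPKM in EV replicates 1 and 2. Their median difference, replicate 2 minus replicate 1, was -0.37 in ACSS2NLS and -0.28 in EV on the log2 scale, and replicate 2 was the higher for 2 of 12 in ACSS2NLS and 1 of 12 in EV. Their median fold between the highest and the lowest library was 1.47, and 0 of them reached 4-fold.

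**Figure D3:**
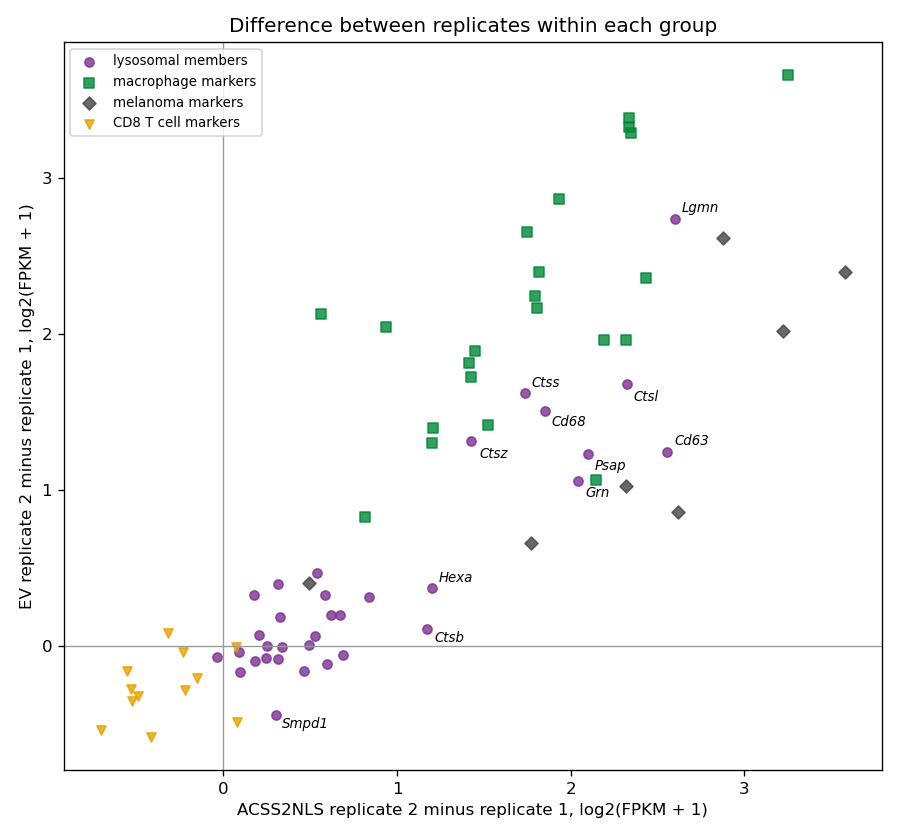
Replicate 2 minus replicate 1 on the log2(FPKM + 1) scale, in ACSS2NLS on the horizontal axis and in EV on the vertical axis; each point is a gene of the lysosomal members or of the macrophage, melanoma or CD8 T cell markers with a mean of at least 1 FPKM. Lgmn, Ctsl, Cd63, Cd68, Ctss, Psap, Grn and Ctsz lie among the marker genes of macrophages and melanoma cells, and most other members lie near 0 on the vertical axis.

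Other genes of the organelle, listed by role from general knowledge, held few wide genes among those with a mean of at least 1 FPKM. Of 65 further hydrolases, membrane proteins and V-ATPase subunits with a mean of at least 1 FPKM, 0 passed in either direction (limma-trend without a term for the replicate number). With that term 3 passed upward, against 2.33% of all genes. Without it, an unadjusted p under 0.05 (limma-trend) was reached by 0 upward and 3 downward, beside 3.1% and 2.87% of all genes. Their median log2 change was 0.010. In 3 of 65, 4.62%, the highest library was at least 4-fold above the lowest, beside 3.36% of all genes. These were Ctsh, Slc11a1 and Atp6v0a1, named for that value after it was seen. Of the listed genes under a mean of 1 FPKM, which the count leaves out, Ctsk, Arsg, Laptm4b, Atp6v0d2 and Atp6v0e2 also reached 4-fold. Ctsh, an aminopeptidase of the cathepsin family, was at 6.05 and 21.4 FPKM in ACSS2NLS, against 3.17 and 15.9 FPKM in EV. Slc11a1, the metal transporter of macrophage phagosomes, was at 2.82 and 16.3 FPKM in ACSS2NLS, against 1.13 and 8.70 FPKM in EV. Atp6v0a1, a V-ATPase subunit, was at 0.447 and 2.84 FPKM in ACSS2NLS, against 0.126 and 0.896 FPKM in EV. All 3 had the library order of the macrophage markers. Atp6v0a1, with a mean of 1.08 FPKM, met the filter only through ACSS2NLS replicate 2, so its fold and order rest on very low values. Ctsw, a cathepsin of cytotoxic lymphocytes, also named after its values were seen, was at 167 and 141 FPKM in ACSS2NLS, against 173 and 177 FPKM in EV, with both ACSS2NLS libraries the lower.

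The smallest unadjusted p among the further genes belonged to Abcb9 and Tmem192. Abcb9, a peptide transporter of the lysosomal membrane, was at 14.8 and 16.0 FPKM in ACSS2NLS, against 20.8 and 20.6 FPKM in EV (log2 change -0.41 ± 0.11; limma-trend, adjusted p = 0.81). Tmem192, a lysosomal membrane protein, was at 18.3 and 16.9 FPKM in ACSS2NLS, against 24.5 and 22.6 FPKM in EV (log2 change -0.40 ± 0.12; limma-trend, adjusted p = 0.81). Both were lower in both ACSS2NLS libraries with little spread within a group, and neither passed over all genes. Among the hydrolases Ctse, an aspartic protease, had a log2 change of -0.45 ± 0.17 and Arsb, a sulfatase, one of -0.38 ± 0.18. Of 15 further V-ATPase subunits 12 had a higher mean in ACSS2NLS, against 53.2% of all genes, with a median log2 change of 0.091; Atp6v1h had 0.21 ± 0.13 and Atp6v0a2 -0.27 ± 0.16.

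Genes that sort enzymes to the lysosome, control it or use it did not pass the test either. Their counts stand beside 53.2% of all genes with a higher and 46.8% with a lower mean in ACSS2NLS. An unadjusted p under 0.05 (limma-trend) was reached by 3.1% of all genes upward and 2.87% downward. Of 19 sorting and regulation genes 0 passed (limma-trend; an unadjusted p under 0.05 was reached by 1 upward and 1 downward), with a median log2 change of 0.038. Flcn, whose product folliculin restrains TFE3 and TFEB, was at 11.1 and 12.3 FPKM in ACSS2NLS, against 9.64 and 7.97 FPKM in EV (log2 change 0.37 ± 0.14; limma-trend, adjusted p = 0.81). Gnptab, the enzyme that starts the mannose 6-phosphate tag of lysosomal enzymes, was at 20.2 and 22.6 FPKM in ACSS2NLS, against 27.4 and 25.7 FPKM in EV (log2 change -0.30 ± 0.12; limma-trend, adjusted p = 0.81). The groups did not overlap for either gene. Of 11 genes of lytic granule secretion 0 passed (limma-trend, with 0 at an unadjusted p under 0.05), 3 had a higher and 8 a lower mean, and the median log2 change was -0.08. The granule GTPase gene Rab27a had a log2 change of -0.27 ± 0.14 and the syntaxin gene Stx11 -0.18 ± 0.13. Of 20 autophagy genes 0 passed (limma-trend, an unadjusted p under 0.05 being reached by 0 upward and 1 downward), 6 had a higher and 14 a lower mean, and the median log2 change was -0.05. Gabarapl1, which binds autophagosome membranes, had -0.29 ± 0.11, and Uvrag, a regulator of autophagosome maturation, had -0.22 ± 0.15. At least 4-fold between libraries was found in 0 of 19 sorting and regulation genes, 0 of 11 granule genes and 1 of 20 autophagy genes, Optn, named after its value was seen, beside 3.36% of all genes.

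**Figure D4:**
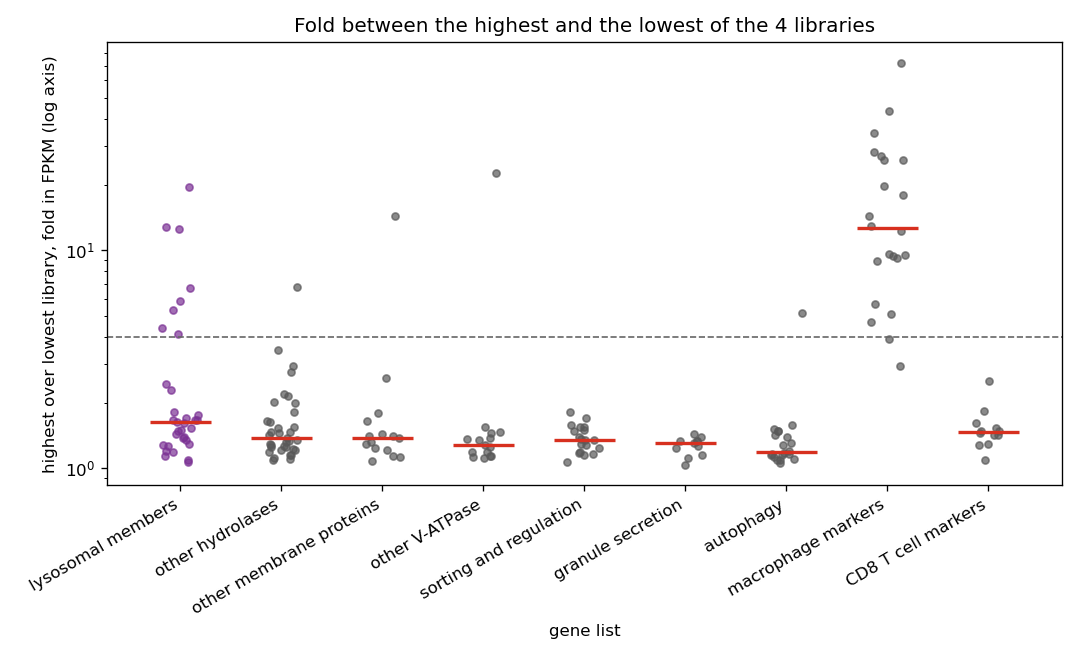
Fold in FPKM between the highest and the lowest of the 4 libraries (log axis) for each gene with a mean of at least 1 FPKM, by list; red lines are medians and the dashed line marks 4-fold. The lysosomal members reach from 1.07-fold to 19.5-fold, while the macrophage markers have a median of 12.6-fold and the CD8 T cell markers one of 1.47-fold.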

How the data were processed

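RNA of 4 libraries, 2 ACSS2NLS and 2 EV, was sequenced after extraction with the Rneasy Plus Micro kit and SMART-Seq v4 library preparation, per the labels' protocols. STAR 2.5.3a, HOMER and mm10 were used, per the submitters' processing notes. The authors deposited FPKM with 3 decimals, from HOMER counts of sense tags on exons with 1 transcript per gene, per the file headers. The header names 8 tag directories; the 4 columns present were used, with Acss2OE read as ACSS2NLS and Acss2WT as EV. The sources used here do not say whether the libraries kept strand. In GENCODE M21, on the same assembly, 11 members share exon bases with another gene, 3 of them (Ctsd, Ctsl and Glb1) on the same strand. The others, Ctsa, Ctsb, Ctsz, Grn, Hexa, Lamp1, Npc1 and Ppt1, share them with genes on the opposite strand. Ctsl also does, over 1742 bases. If strand was not kept, both kinds of overlap matter, so the values of all 11 are less certain.

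A count test was not used, since FPKM is normalized. Total tags were read from the steps of FPKM times exon length (whole within 0.1 of a step for 100% of the values checked). Replicates differed by more than counting allows (chi-square over degrees of freedom 60.7 in ACSS2NLS and 40.1 in EV). The log2(FPKM + 1) of the 9810 genes at a mean of 1 FPKM or more was tested with limma-trend (limma 3.58.1, R 4.3.3, two-sided, Benjamini-Hochberg over all of them, threshold 0.05). The fit was also run on simulated data whose libraries varied independently. That simulation held no difference shared by same-numbered replicates, so it does not show how the fit behaves with one. Log2 changes are ACSS2NLS minus EV, are given with their SE over 2 libraries per group, and understate the change of low genes. Exact permutation of 2 against 2 libraries reaches no p under 0.333. No label names separate mice, and the p-values rest on the spread between the samples of a group. In both groups the Y-linked genes Eif2s3y, Kdm5d, Ddx3y and Uty were at 0 in replicate 2 and above 0 in replicate 1. The replicates of a group were therefore not repeats of 1 RNA sample, and their spread includes a difference shared by both groups. How much of the spread is technical was not tested.

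The members and lists were chosen with earlier results of these data known. All members are given by role; of the other lysosomal, granule and autophagy lists up to 2 genes with the smallest unadjusted p are named, and Acss2, Lyz2, Csf1r, C1qa, Adgre1, Mlana and Cd8a are given by library. The alternatives were other filters and pseudocounts, quantile normalization, each library left out, the replicate number as a block and the macrophage level as a covariate.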

Additional observations from a re-analysis of the deposited data

How the results depend on the processing

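With the filter on low values removed, 38 genes passed upward and 4 downward over all genes. Every alternative left 0 of the members tested called (33, or 30 at a mean of at least 5 FPKM, without Ctsl, Gla and Npc1) except the replicate block (the replicate number as a term, with 1 residual degree of freedom), under which 229 genes passed upward and 172 downward, 2.33% and 1.75% of all, among them 6 members upward, Ctsz, Ctss, Lgmn, Psap, Cd63 and Cd68 (log2 changes 0.60, 0.83, 1.07, 0.72, 1.06 and 0.94), 0 downward, and 3 of the other lysosomal and V-ATPase genes upward. Same-numbered replicates deviated together over all genes (r = 0.58 across 9810 genes, which are not independent). There are only 2 such pairs, and no label ties them. The Y-linked genes Eif2s3y, Kdm5d, Ddx3y and Uty were at 0 in both replicates 2 and above 0 in both replicates 1. Same-numbered libraries thus also shared the presence or absence of these transcripts, and whether they were prepared as pairs is not known. With the macrophage level as a covariate, also with 1 residual degree of freedom, 66 genes passed upward and 93 downward over all genes and 0 members, and the log2 change turned negative for Asah1 (-0.096), Ctsc (-0.12), Ctsl (-0.30), Gaa (-0.033), Grn (-0.38), Gusb (-0.036), Hexa (-0.11), Lamp1 (-0.074) and Tpp1 (-0.035); under quantile normalization that of Ctsd turned to 0.064. The cause of these moves was not tested. When 1 library was left out, which leaves a lone library in its group that is assumed to vary like the others, 0 to 9 genes passed downward over all genes and the members called stayed at 0, while an unadjusted p under 0.05 was reached by 5 members (15.2%, against 5.42% of all genes) without EV replicate 2, 9 (27.3%, against 6.72%) without ACSS2NLS replicate 1, 3 (9.09%, against 8.63%) without ACSS2NLS replicate 2 and 0 (against 2.33%) without EV replicate 1. The members higher in all ACSS2NLS than in all EV libraries then numbered 0 to 23 (30.9% to 43.4% of all genes) and those lower 4 to 23 (28.6% to 39.4%), and 2 to 8 members reached 4-fold between libraries, an alternative chosen after seeing the data. The members' median log2 change ranged from -0.23 to 0.36. The log2 changes that turned sign ranged, over the 4 libraries left out, as Asah1 -0.27 to 0.40, Atp6ap1 -0.23 to 0.023, Atp6v0d1 -0.075 to 0.017, Atp6v1a -0.36 to 0.13, Cd63 -0.22 to 2.34, Ctsa -0.14 to 0.042, Ctsb -0.34 to 0.84, Ctsc -0.24 to 0.34, Ctsd -0.27 to 0.20, Ctsl -0.70 to 1.63, Ctss -0.036 to 1.70, Ctsz -0.11 to 1.31, Gaa -0.19 to 0.43, Glb1 -0.36 to 0.033, Grn -0.82 to 1.23, Gusb -0.11 to 0.43, Hexa -0.42 to 0.77, Lamp1 -0.28 to 0.56, Lamp2 -0.098 to 0.59, Lgmn -0.29 to 2.44, Npc2 -0.075 to 0.17, Psap -0.33 to 1.77, Tfeb -0.30 to 0.024, Tpp1 -0.15 to 0.16. For 9 members the sign was the same in every alternative in which they were tested, all 11 except for Gla and Npc1, which a mean of at least 5 FPKM leaves out. Pseudocounts of 0.1 and 0.5 and a mean of at least 5 FPKM turned no sign among the members tested. The depth gave at least 59 tags behind each member's value, and 2 libraries per group limit the precision of each comparison.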

Other observations

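Markers of other cells of a tumour were at lower levels than those of macrophages, apart from the dendritic list. The 9 dendritic cell markers, which include the MHC class II genes H2-Ab1 and Cd74 that macrophages also express, summed to 339 and 743 FPKM in ACSS2NLS replicates 1 and 2, against 165 and 560 FPKM in EV replicates 1 and 2. The 9 neutrophil markers summed to 0.609 and 3.60 FPKM in ACSS2NLS, against 7.17 and 54.7 FPKM in EV, so they did not follow the library order of the wide lysosomal genes, with EV replicate 1 above both ACSS2NLS libraries. The 8 stromal and endothelial markers summed to 17.0 and 16.1 FPKM in ACSS2NLS, against 8.61 and 13.5 FPKM in EV, the 5 B cell markers to 2.97 and 3.15 FPKM, against 1.58 and 2.38 FPKM, the markers Cd4 and Foxp3 to 4.47 and 6.11 FPKM, against 3.48 and 6.13 FPKM, and the 5 red cell markers to 16.3 and 4.38 FPKM, against 7.02 and 11.3 FPKM.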
